A study of Mus musculus with 12 samples.

Results

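Krt6a, Krt6b, Krt16 and Krt17 are the stress keratins of skin, filament proteins of the keratinocyte that are known to appear in injured and psoriatic epidermis. They were taken by gene symbol from a table of raw RNA-seq counts in mouse skin, and all 4 were found among the 33539 genes listed. All 4 also passed the filter on low counts, which left 18147 genes for testing.

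Keratins work in pairs. A type II keratin (Krt6a and Krt6b here) and a type I keratin (Krt16 and Krt17 here) join into a heterodimer, and the dimers assemble into the filaments that carry mechanical load. In resting skin Krt5 and Krt14 form the filaments of the basal layer and Krt1 and Krt10 those of the layers above, while Krt17, Krt6a and Krt16 are made mainly in the hair follicle, the nail and the footpad. After wounding, and in psoriasis, keratinocytes between the follicles switch on the Krt6 genes, Krt16 and Krt17. IL-1, IL-36, IL-17 and IL-22 family cytokines and ligands of the EGF receptor are known inducers of these genes.

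The study placed 12 bulk RNA-seq libraries in 3 groups. There were 3 libraries from wild-type control mice and 5 from wild-type mice in which psoriasis-like skin disease was induced with imiquimod (IMQ), a Toll-like receptor agonist applied to skin. The other 4 came from Tcn2-/- mice given IMQ. Tcn2 encodes transcobalamin, the plasma protein that carries vitamin B12 into cells. The labels give neither the strain, age, dose and length of treatment nor what the control skin received, and they do not say how the Tcn2-/- mice were made or whether animals were pooled. No group of untreated Tcn2-/- skin was analysed here, so the genotype was compared only under IMQ. Nothing in the labels says that the libraries of a group came from separate animals, so the p-values speak only of the spread between these libraries, and that spread may be technical.

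Total counts lay between 16182324 and 18503487 per library. The sample titles carry the word muscle while the tissue label is skin, and the data held both. Summed over 7 basal keratinocyte markers, the level was 3878 to 22514 CPM (a gene's count scaled to library size), and summed over 10 skeletal muscle markers it was 2060 to 27175 CPM. Tcn2 checked the genotype label, with 1.91 to 5.59 CPM in the Tcn2-/- libraries, 19.9 to 85.9 CPM in the controls and 67.0 to 141 CPM in the IMQ libraries. Mitochondrial transcripts made up 10.3% of counts in control replicate 1 and 8.08% in Tcn2-/- IMQ replicate 2. Transcripts of Xist, which is made in female cells, reached 18572 to 26187 counts in IMQ replicate 1 and control replicates 2 and 3, with at most 8 counts elsewhere. The sexes were therefore spread unevenly over the groups. In bulk skin, fewer cells of a type and less RNA per cell cannot be told apart.

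The 4 genes lie in the mouse keratin clusters. On build GRCm39 and as the deposited table gives them, Krt6a (ENSMUSG00000058354) was at chr15:101598345-101602742 and Krt6b (ENSMUSG00000023041) at chr15:101584458-101588722, next to the type II genes Krt75 and Krt5. Krt16 (ENSMUSG00000053797) was at chr11:100136917-100139728 and Krt17 (ENSMUSG00000035557) at chr11:100147043-100151855, beside the type I genes Krt14 and Krt42. All 4 are on the minus strand. In the GENCODE M21 annotation of the earlier build GRCm38, used here for sequence and length only, Krt6a and Krt6b transcripts had 9 exons and Krt16 and Krt17 transcripts had 8.

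Krt6a and Krt6b are near copies, and how far reads can be told apart decides how far their separate values can be read. Their coding sequences were 97.6% identical, with 40 of 1665 aligned columns differing. Of all 90-base stretches of the alignment, 45.1% were the same in both genes, and the longest stretch shared by the transcripts ran to 280 bases. The 90-base stretch where they differ most, coding bases 787 to 876 counted from the A of the start codon, is printed to show what separates the copies, with the 12 differing bases in capitals (chromosome 15, minus strand, written in the sense of the transcript, GENCODE M21 on GRCm38).
Krt6a: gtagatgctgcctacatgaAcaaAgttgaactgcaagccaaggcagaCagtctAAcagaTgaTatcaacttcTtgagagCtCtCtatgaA
Krt6b: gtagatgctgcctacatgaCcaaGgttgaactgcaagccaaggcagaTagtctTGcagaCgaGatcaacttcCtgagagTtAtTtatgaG
Neither the read length nor the counting program is given in the sources used here, so a part of the reads of one copy may have been counted for the other or left out. The values of Krt6a and Krt6b are therefore also given as a sum. Krt16 and Krt17 stood further from their relatives, at 83.2% coding identity between Krt16 and Krt14, 76.1% between Krt17 and Krt42, 75.0% between Krt17 and Krt14 and 70.9% between Krt16 and Krt17. The Krt16 and Krt14 transcripts still shared a stretch of 134 bases, and 12.4% of the 50-base stretches of Krt16 occurred in Krt14. How reads from such stretches were counted is not known.

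Krt6a, Krt6b and Krt16 were low in control skin and high in every IMQ library, whereas Krt17 was already high in control skin and moved in no common direction. Krt6b, the type II copy with the lowest control level, stood at 3.35, 12.02 and 3.01 CPM in control replicates 1 to 3 (61, 214 and 53 counts). In IMQ replicates 1 to 5 it stood at 3271, 2013, 3447, 2349 and 5880.1 CPM. The lowest IMQ library was thus far above the highest control.

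Krt6a, the copy with the higher control level, stood at 73.1, 56.1 and 66.8 CPM in control replicates 1 to 3, and IMQ replicates 1 to 5 held 2421, 1406, 2137, 1134 and 2587 CPM. Krt16, the type I partner of the Krt6 proteins, stood at 10.7, 24.2 and 18.5 CPM in control skin, and the IMQ libraries held 2198, 1611, 2267, 1666 and 4031 CPM. For both genes the groups were far apart, and IMQ replicate 5 was the highest library.

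Krt17, a type I keratin of the follicle, was at 941, 767 and 703 CPM in control replicates 1 to 3. It was at 1989, 2005, 464, 218 and 565 CPM in IMQ replicates 1 to 5. IMQ replicates 1 and 2 lay above every control and IMQ replicates 3 to 5 lay below every control, so the IMQ group spread to both sides.

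**Figure D1:**
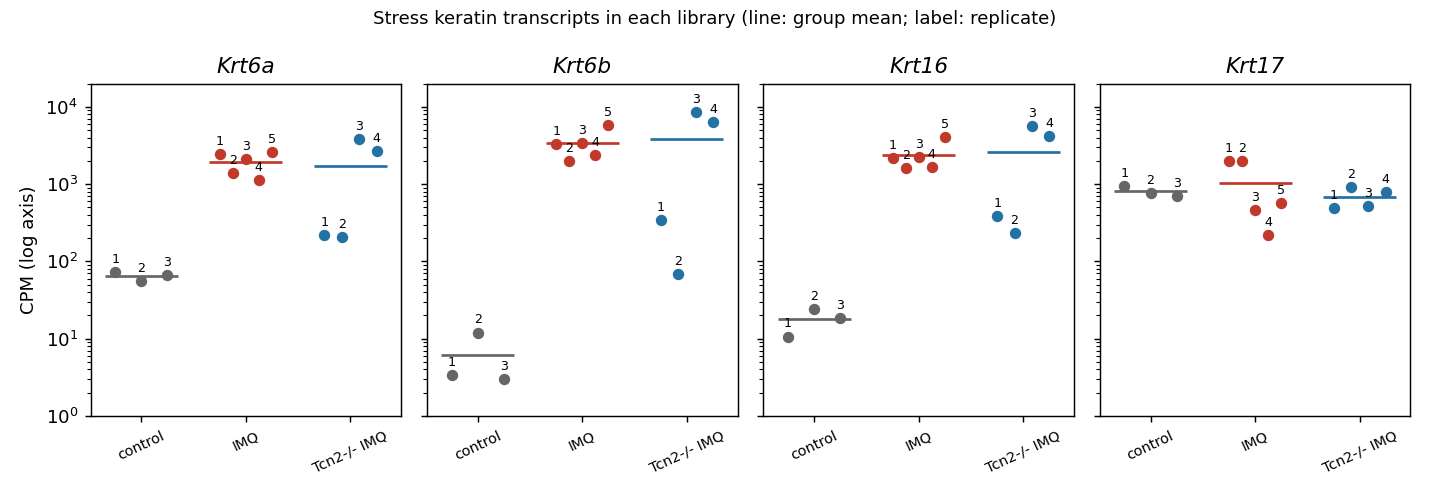
CPM of Krt6a, Krt6b, Krt16 and Krt17 in each of the 12 libraries on a log axis, with points numbered by replicate and a line at each group mean. Krt6a, Krt6b and Krt16 lie higher in all 5 IMQ libraries than in the 3 controls, Tcn2-/- IMQ replicates 1 and 2 lie between these groups for Krt6a, Krt6b and Krt16, and Krt17 overlaps across all groups.

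In the test of IMQ against control, 3 of the 4 genes rose (edgeR quasi-likelihood test with Benjamini-Hochberg adjustment over all genes, called at an adjusted p below 0.05), against a background of 1.23% of all genes tested called in either direction and 0.694% called higher. Krt6b had a mean of 6.13 ± 5.11 CPM in control skin (SD, n = 3) and of 3392 ± 1516 CPM in IMQ skin (SD, n = 5), a log2 change of 9.11 (SE 1.70, 95% interval 5.40 to 12.8, adjusted p = 0.0317) or 553-fold. By size it ranked 57 of all genes tested. Krt16 went from 17.8 ± 6.79 to 2354 ± 983 CPM, a log2 change of 7.05 (SE 1.20, 95% interval 4.44 to 9.66, adjusted p = 0.0223) or 132-fold. Krt6a went from 65.3 ± 8.61 to 1937 ± 637 CPM, a log2 change of 4.89 (SE 1.01, 95% interval 2.68 to 7.10, adjusted p = 0.0422) or 29.7-fold. Each of the 3 was higher in 5 of 5 IMQ libraries than in any control, as were 6.79% of all genes tested. Summed, Krt6a and Krt6b rose by 6.22 on the log2 scale (adjusted p = 0.0400). The sum is the same whichever copy a read was counted for, but reads left out or shared with other genes may still have moved it.

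Markers of other cell types differed between the same groups. Summed skeletal muscle markers were 9708 to 10846 CPM in the controls and 2060 to 4849 CPM in IMQ skin, with 8 of 10 lower in every IMQ library than in any control. Summed sebocyte markers were 7645 to 10185 CPM in the controls and 2981 to 5538 CPM in IMQ skin, with 4 of 6 lower in every IMQ library. Of all genes tested 7.4% were lower in this way, and 0 of the 10 muscle and 0 of the 6 sebocyte markers were called by edgeR. An unadjusted p below 0.05 was reached by 15.6% of all genes tested, and by 8 muscle and 2 sebocyte markers. Their part in the rise of Krt6a, Krt6b and Krt16 was not tested.

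Krt17 did not pass the same test. Its mean was 804 ± 123 CPM in control skin and 1048 ± 875 CPM in IMQ skin, and its log2 change was 0.38 (SE 0.62, adjusted p = 0.799). The 95% interval ran from -0.97 to 1.73, so a lower level and a rise of the size given by its upper end both lay within it. It leaves out the changes measured for the other 3 genes.

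The adjusted p-values lay near the threshold and moved with single libraries. Krt6a was no longer called without control replicate 1, 2 or 3 (adjusted p = 0.117, 0.194 and 0.177) or without IMQ replicate 1, 3, 4 or 5 (adjusted p = 0.0729, 0.0860, 0.0637 and 0.0924). Krt6b was no longer called without the same controls (adjusted p = 0.0938, 0.125 and 0.149) or without the same IMQ replicates (adjusted p = 0.0566, 0.0702, 0.0521 and 0.0645). Krt16 was no longer called without control replicate 1, 2 or 3 (adjusted p = 0.0664, 0.117 and 0.135) or IMQ replicate 3 (adjusted p = 0.0516). The sum of Krt6a and Krt6b kept its call in 1 of these 8 fits, without IMQ replicate 2 (adjusted p = 0.0330, and up to 0.184 in the others). The log2 changes moved little, from 4.76 to 5.03 for Krt6a, from 8.79 to 10.05 for Krt6b and from 6.77 to 7.33 for Krt16. With sex as a covariate Krt6a had an adjusted p of 0.0745, and without both libraries of high mitochondrial share it had 0.0571.

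The question the study put was how Tcn2-/- skin differs from wild-type skin under IMQ. For Krt6a, Krt6b and Krt16 the group means were close, and the Tcn2-/- libraries were widely spread around theirs. Krt6b stood at 348, 69.1, 8498 and 6414 CPM in Tcn2-/- IMQ replicates 1 to 4. Krt6a stood at 222, 209.9, 3846 and 2657 CPM in the same libraries. Krt16 stood at 388, 230.0, 5666 and 4211 CPM. For all 3 genes, replicates 1 and 2 were below every wild-type IMQ library and replicates 3 and 4 were above every wild-type IMQ library. Krt17, at 493, 930.4, 523 and 784 CPM, did not split in this way, and its 4 values lay inside the range of the wild-type IMQ group.

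None of the 4 genes was called in Tcn2-/- IMQ against IMQ, 0 by edgeR and 0 by DESeq2, and 0 had an unadjusted p below 0.05. Of all genes tested 0.0276% were called and 11.8% had an unadjusted p below 0.05. The log2 changes were -0.16 for Krt6a (SE 0.73, 95% interval -1.75 to 1.43, adjusted p = 0.947) and 0.18 for Krt6b (SE 0.99, 95% interval -1.99 to 2.34, adjusted p = 0.958). Those of the type I genes were 0.16 for Krt16 (SE 0.77, 95% interval -1.51 to 1.83, adjusted p = 0.951) and -0.62 for Krt17 (SE 0.57, 95% interval -1.86 to 0.62, adjusted p = 0.694). The intervals are wide, and a change of 2-fold either way in Krt6a, Krt6b or Krt16 lies within them. The SD of CPM was 104.9% of the mean for Krt6a, 111% for Krt6b and 104% for Krt16 in the Tcn2-/- IMQ group, against 32.9%, 44.7% and 41.8% in the IMQ group. For Krt17 it was the other way round, with 30.8% in the Tcn2-/- IMQ group and 83.5% in the IMQ group. The sign of the Krt6a, Krt6b and Krt16 differences turned when single libraries were left out, with ranges of -0.91 to 0.21, -0.58 to 0.58 and -0.55 to 0.54.

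Markers of some other cell types differed along this split, and those of others did not. Summed skeletal muscle markers were 27175 and 15360 CPM in Tcn2-/- IMQ replicates 1 and 2, against 6171 and 11023 CPM in replicates 3 and 4 and 2060 to 4849 CPM in the wild-type IMQ libraries. Summed sebocyte markers were 11929 and 8083 CPM in replicates 1 and 2, against 1591 and 3843 CPM in replicates 3 and 4. Summed markers of the follicle bulge and companion layer were 2048 and 1844 CPM in replicates 1 and 2, beside 1967 to 2723 CPM in the controls, and 724 and 1100 CPM in replicates 3 and 4. By group mean this sum was mostly Krt79 and Krt15, at 1139 and 748 CPM in the controls and 807 and 308 CPM in Tcn2-/- IMQ skin. Krt75, a companion layer keratin of the same list, was at 20.5, 50.2, 12.6 and 24.6 CPM in replicates 1 to 4. Summed immune cell markers were 127 and 37.8 CPM in replicates 1 and 2 and 409 and 363 CPM in replicates 3 and 4. Summed fibroblast markers did not follow the split, at 42339, 8054, 31675 and 22385 CPM in replicates 1 to 4. Neither did hair shaft and inner root sheath markers, at 51.8, 1687, 64.4 and 31.2 CPM. Of the 10 muscle, 6 sebocyte, 7 bulge and companion layer, 5 immune, 6 fibroblast and 14 hair shaft and inner root sheath markers tested, none was called in this comparison. An unadjusted p below 0.05 was reached by 11.8% of all genes tested. It was reached by 8 muscle, 1 bulge and companion layer, 3 immune and 4 hair shaft and inner root sheath markers. The part of these cell types in the split of the stress keratins was not tested. Krt5, a basal keratin, was at 2135, 2708, 3802 and 2973 CPM in replicates 1 to 4, within or above the 1519 to 2785 CPM of the wild-type IMQ libraries. Its partner Krt14 did split with the stress keratins, at 3549 and 3172 CPM in replicates 1 and 2 and 17429 and 11108 CPM in replicates 3 and 4, beside 4887 to 13437 CPM in the wild-type IMQ libraries. The 7 basal keratinocyte markers, which include Krt5 and Krt14, summed to 7099 and 7133 CPM in replicates 1 and 2 and to 22514 and 15736 CPM in replicates 3 and 4, beside 7439 to 17456 CPM in the wild-type IMQ libraries. Krt5 and Krt14 made up most of each sum, so the sums do not show a split of the other basal markers. The mitochondrial share of counts was 6.06% and 8.08% in replicates 1 and 2 and 3.24% and 4.23% in replicates 3 and 4. The part of these differences in the split was not tested either.

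Against control skin, Krt6a, Krt6b and Krt16 rose in Tcn2-/- IMQ skin too. Here 3 of the 4 genes were called higher, against 0.579% of all genes tested called higher and 1.31% called in either direction. The log2 change was 9.29 for Krt6b (SE 1.72, adjusted p = 0.0288), which ranked 7 by size among all genes tested, and 7.20 for Krt16 (SE 1.21, adjusted p = 0.0224). It was 4.73 for Krt6a (SE 1.02, adjusted p = 0.0470) and 6.28 for the sum of Krt6a and Krt6b (adjusted p = 0.0384). Every Tcn2-/- IMQ library was above every control for these 3 genes, as were 4.67% of all genes tested. Krt17 had a log2 change of -0.24 (SE 0.64, 95% interval -1.63 to 1.16, adjusted p = 0.926). This comparison shares its libraries with both others and is no separate evidence for them.

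These calls also moved with single libraries. Krt6a was no longer called without control replicate 1, 2 or 3 (adjusted p = 0.0792, 0.221 and 0.204) or Tcn2-/- IMQ replicate 3 or 4 (adjusted p = 0.109 and 0.111). Krt6b was no longer called without the same 5 libraries (adjusted p = 0.0537, 0.121, 0.151, 0.0710 and 0.0765), and Krt16 without control replicate 2 or 3 (adjusted p = 0.113 and 0.120) or Tcn2-/- IMQ replicate 3 or 4 (adjusted p = 0.0613 and 0.0633). With sex as a covariate the adjusted p was 0.173 for Krt6a, 0.102 for Krt6b and 0.0856 for Krt16, and no Tcn2-/- IMQ library had more than 8 Xist counts, so sex and group are partly confounded here. The sum of Krt6a and Krt6b kept its call only without Tcn2-/- IMQ replicate 1 or 2 (adjusted p of 0.0133 to 0.193 over the 7 fits). A fit of only the groups compared gave 0.142, 0.0923 and 0.0730.

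Levels of different genes were set side by side per kilobase of transcript (CPM per kb, with GENCODE M21 lengths of 2278 bases for Krt6a, 2235 for Krt6b, 1565 for Krt16 and 1551 for Krt17). In control skin the order was clear, with Krt17 at 518 ± 79.4 CPM per kb (SD, n = 3), Krt6a at 28.7 ± 3.78, Krt16 at 11.4 ± 4.34 and Krt6b at 2.74 ± 2.28, and no overlap between neighbours. In IMQ skin Krt6b at 1518 ± 678 and Krt16 at 1504 ± 628 CPM per kb (SD, n = 5) stood first and did not differ beyond their spread. Krt6a at 850 ± 280 and Krt17 at 676 ± 564 CPM per kb followed and overlapped. The Tcn2-/- IMQ group had means in the same order, 1715 ± 1911 for Krt6b, 1677 ± 1750 for Krt16, 761 ± 798 for Krt6a and 440 ± 136 CPM per kb for Krt17 (SD, n = 4), with SDs near or above the mean for all but Krt17.

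The stress keratin pool was thus mostly Krt17 in control skin and mostly Krt6b, Krt16 and Krt6a in IMQ skin. Krt17 made up 92.3 ± 1.30% of the per-kb sum of the 4 genes in control skin and 15.2 ± 13.2% in IMQ skin, where it ranged from 5.09% to 33.7%. The share was 38.8%, 69.0%, 3.57% and 6.99% in Tcn2-/- IMQ replicates 1 to 4. Replicates 1 and 2 thus kept a larger Krt17 share than any wild-type IMQ library. The 4 genes together took 0.0821% to 0.115% of all counts in control libraries, 0.524% to 1.27% in IMQ libraries, and 0.141%, 0.149%, 1.72% and 1.30% in Tcn2-/- IMQ replicates 1 to 4.

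**Figure D2:**
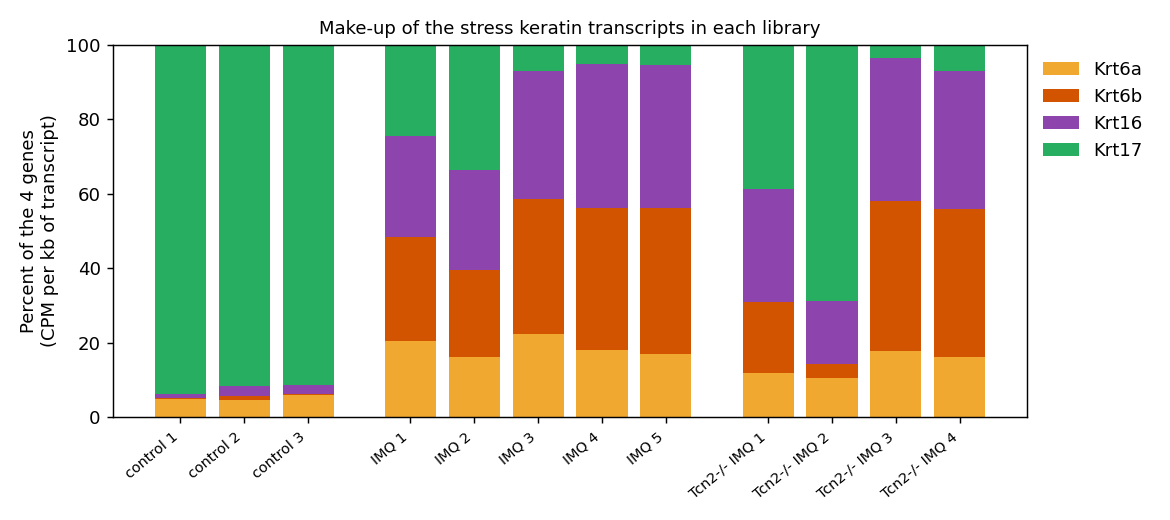
Percent of the summed CPM per kb of the 4 stress keratins taken by each gene, as a stacked bar per library. Krt17 fills 91.4% to 93.8% of the control bars and 5.09% to 33.7% of the IMQ bars, and Tcn2-/- IMQ replicates 1 and 2 stand between, at 38.8% and 69.0%.

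Because a type II keratin needs a type I partner, the per-kb sum of Krt6a and Krt6b was divided by that of Krt16 and Krt17. This ratio was 0.0547 to 0.0659 in control skin and 0.654 to 1.42 in IMQ skin. It was 0.448, 0.165, 1.39 and 1.26 in Tcn2-/- IMQ replicates 1 to 4. The type I side thus exceeded the type II side in every control, while in IMQ skin the sides came closer. Both sides have other partners in skin, and these values are of transcripts, not of proteins.

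Within the Krt6 pair the leading copy differed between control and IMQ skin. The count ratio of Krt6b to Krt6a was 0.0459, 0.214 and 0.0451 in control replicates 1 to 3, so Krt6a led. It was 1.35, 1.43, 1.61, 2.07 and 2.27 in IMQ replicates 1 to 5, so Krt6b led in all 5. The transcripts have nearly the same length, and per kilobase Krt6b likewise led in 0 of 3 controls and 5 of 5 IMQ libraries. Tcn2-/- IMQ replicates 1 to 4 had ratios of 1.57, 0.329, 2.21 and 2.41, and replicate 2 alone of the 9 IMQ-treated libraries had more Krt6a than Krt6b. This ratio was added after the data were seen and was not tested. Reads counted for the wrong copy or left out may have moved it, and in which direction is not known.

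To set the stress keratins against the epidermis they are made in, each was divided within its library by the basal keratin of its own type, Krt5 for the type II genes and Krt14 for the type I genes. The log2 ratios had 0.5 counts added to each gene, and the plain ratios had none. Krt6b to Krt5 was 0.00142, 0.00949 and 0.00254 in control skin, and 1.55, 0.788, 1.74, 1.55 and 2.11 in IMQ replicates 1 to 5. Krt6a to Krt5 was 0.0309, 0.0443 and 0.0563 in control skin, and 1.15, 0.551, 1.08, 0.746 and 0.929 in IMQ skin. Set per kilobase, Krt6b was above Krt5 in 4 of 5 IMQ libraries and Krt6a in 2 of 5.

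Krt16 to Krt14 was 0.00476, 0.0138 and 0.0146 in control skin and stayed within 0.252 to 0.356 in IMQ skin. Krt17 to Krt14 was 0.420, 0.438 and 0.555 in control skin, and 0.322, 0.313, 0.0686, 0.0445 and 0.0421 in IMQ replicates 1 to 5. Relative to Krt14, then, Krt17 was lower in every IMQ library than in any control. Krt14 itself had a log2 change of 2.10 (SE 0.63, adjusted p = 0.135) and Krt5 one of 0.45 (SE 0.33, adjusted p = 0.536), by edgeR.

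In the mean of log2 ratios, IMQ minus control, the differences were 4.34 for Krt6a, 8.82 for Krt6b, 4.99 for Krt16 and -2.15 for Krt17. Each had an exact two-sided permutation p of 0.0357, the smallest that 5 against 3 libraries allow, and a Benjamini-Hochberg adjusted p of 0.0857 over the 12 ratio tests run, so none passed the adjustment. With the sum of Krt5 and Krt14 as reference, the Krt17 difference was -1.61 (exact p = 0.143). For Tcn2-/- IMQ minus IMQ they were -1.56 for Krt6a (exact p = 0.206), -1.97 for Krt6b (exact p = 0.333), -0.83 for Krt16 (exact p = 0.286) and -0.13 for Krt17 (exact p = 0.889), with overlap in each. For Tcn2-/- IMQ minus control they were 2.78, 6.85, 4.16 and -2.28 in the same order, each without overlap, and each exact p was 0.0571, the smallest that 4 against 3 libraries allow.

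The low replicates of the Tcn2-/- IMQ group stayed low in these ratios. Krt6a to Krt5 was 0.104, 0.0775, 1.01 and 0.894 in Tcn2-/- IMQ replicates 1 to 4, and Krt6b to Krt5 was 0.163, 0.0255, 2.23 and 2.16. Krt16 to Krt14 was 0.109, 0.0725, 0.325 and 0.379. For these 3 genes, replicates 1 and 2 were below every wild-type IMQ library and above every control, per basal keratin as well as per library.

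**Figure D3:**
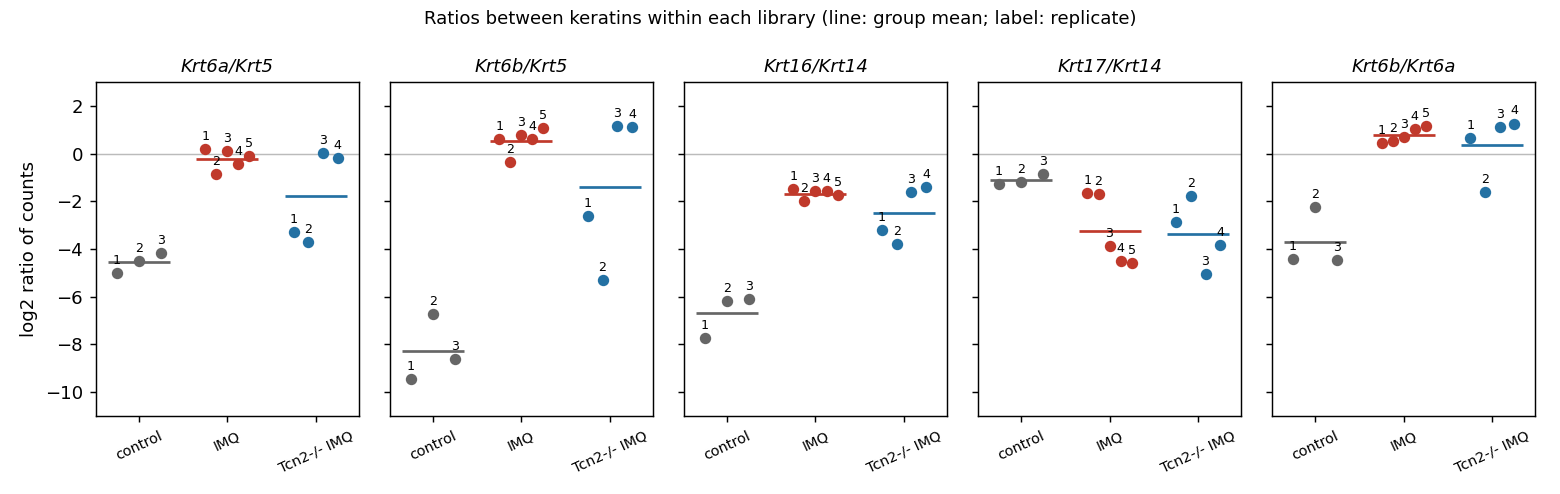
Log2 ratio of each stress keratin to the basal keratin of its type in every library, with points numbered by replicate. Krt6a, Krt6b and Krt16 ratios are higher in all IMQ libraries than in the controls (differences of means 4.34, 8.82 and 4.99), the Krt17 ratio is lower (-2.15), and Tcn2-/- IMQ replicates 1 and 2 lie apart from replicates 3 and 4 in the first 3.

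Across the 12 libraries, Krt6a, Krt6b and Krt16 went together and Krt17 did not. With each group's mean subtracted from log2 CPM, Pearson's r was 0.971 between Krt6b and Krt16, 0.947 between Krt6a and Krt16 and 0.906 between Krt6a and Krt6b. With Krt17 it was 0.037 for Krt6a, -0.126 for Krt6b and -0.105 for Krt16. These are descriptions over 12 libraries that fall into groups, the low Tcn2-/- IMQ libraries weigh in each of the first 3, and part of the tie between Krt6a and Krt6b may be shared reads.

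The genes whose log2 CPM most resembled the mean of the 4 standardised stress keratins, among 14284 genes ranked over 12 libraries, were Tyro3 (r = 0.980, Spearman's rho 0.937), Pla2g4e (r = 0.972), Urah (r = 0.966), Fxyd4 (r = 0.965), Bdkrb2 (r = 0.962) and Prss27 (r = 0.958). After group means were subtracted they were Tyro3 (r = 0.983), Galnt6 (r = 0.972), Slc35f6 (r = 0.971), Jup (r = 0.969), Mpzl2 (r = 0.968) and Eno1 (r = 0.967). In an alternative added after the data were seen, Krt6a, Krt6b and Krt16 without Krt17 were most like Teddm3 (r = 0.992), Lce3a (r = 0.989) and Lce3c (r = 0.985). Krt17 alone was most like Utp20 (r = 0.929), Mta3 (r = 0.929) and Sh3tc2 (r = 0.926).

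None of the 4 nearest relatives of the stress keratins, Krt5, Krt14, Krt75 and Krt42, passed the test in any comparison by edgeR. Only Krt14 in IMQ against control and Krt5 and Krt14 in Tcn2-/- IMQ against control had an unadjusted p below 0.05. Of all genes tested, 15.6% and 12.8% reached this in these 2 comparisons. Krt75, a type II keratin of the hair follicle's companion layer, was at 53.5, 8.14 and 9.60 CPM in control skin, and at 3.50, 295, 4.73, 5.16 and 74.1 CPM in IMQ replicates 1 to 5 (log2 change 1.69, SE 1.38, adjusted p = 0.586, edgeR). Its highest libraries, IMQ replicates 2 and 5, were also those with the most hair shaft and inner root sheath transcripts, at 14543 and 3251 CPM summed over 14 markers. Krt42, the type I gene next to Krt17, had 0 to 32 counts in any library, so it could take few of the Krt17 reads.

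Krt17 is made in the follicle, and the sums of follicle markers are given beside it. Hair shaft and inner root sheath markers summed to 1526, 34.3 and 23.7 CPM in control replicates 1 to 3. The 14 hair shaft and inner root sheath markers summed to 53.6 CPM in IMQ replicate 1 and 14543 CPM in IMQ replicate 2, both of which had high Krt17. Bulge and companion layer markers summed to 746 and 1759 CPM in these libraries and to 540 to 664 CPM in IMQ replicates 3 to 5, where Krt17 was low. In the controls they summed to 1967 to 2723 CPM, above every IMQ library. By group mean these sums were mostly Krt79 and Krt15, at 394 and 116 CPM in IMQ skin. IMQ replicate 5 held 3251 CPM of the hair shaft and inner root sheath markers. In Tcn2-/- IMQ replicates 1 to 4, bulge and companion layer markers summed to 2048, 1844, 724 and 1100 CPM. Krt17 was at 493, 930, 523 and 784 CPM in the same libraries. The part of follicle content in the Krt17 values was not tested.

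Among 18 other epidermal keratins tested, 1 was called higher in IMQ skin and 3 lower, beside 0.694% and 0.535% of all genes tested. Krt1, Krt10 and Krt14 were higher in every IMQ library than in any control, as were 6.79% of all genes tested. In the other direction, 3 of the 18 were lower in every IMQ library, as were 7.4% of all genes tested. Krt1, the suprabasal type II keratin, rose from 480 ± 140 to 6180 ± 2164 CPM (log2 change 3.69, SE 0.78, adjusted p = 0.0447, edgeR). Its type I partner Krt10 had a log2 change of 1.83 (adjusted p = 0.275). Krt15, a basal and bulge keratin, fell by 2.69 on the log2 scale (adjusted p = 0.0166), from 748 ± 220 to 116 ± 45.9 CPM. Krt24, a type I keratin, fell by 6.02 (adjusted p = 0.00666), from 5.89 ± 2.77 to 0.0831 ± 0.100 CPM. Krt77, a type II keratin, fell by 7.17 (adjusted p = 0.0148), from 952 ± 577 to 6.59 ± 7.14 CPM. The other 14 did not pass, and the median log2 change of the 18 was 0.06, against -0.004 over all genes tested.

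In Tcn2-/- IMQ against IMQ 0 of the 18 keratins were called by edgeR, beside 0.0276% of all genes tested, with a median of 0.20. Krt24 came nearest, at a log2 change of 4.97 (adjusted p = 0.0644). Against control, Krt1 rose in Tcn2-/- IMQ skin (log2 change 3.82, adjusted p = 0.0421) and was the only 1 of the 18 called, with a median of -0.56. Of all genes tested, 1.31% were called in that comparison. Krt1 stood at 1693 and 1788 CPM in Tcn2-/- IMQ replicates 1 and 2 and at 11262 and 12375 CPM in replicates 3 and 4. It thus split between the same libraries as Krt6a, Krt6b and Krt16, below and above the wild-type IMQ range of 3677 to 8306 CPM.

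These keratin calls also moved with single libraries. With single libraries left out, Krt1 in IMQ against control kept its call only without IMQ replicate 2, with adjusted p-values of 0.136, 0.194 and 0.166 without control replicates 1 to 3 and of 0.0644, 0.0909, 0.0818 and 0.0941 without IMQ replicates 1, 3, 4 and 5. It was also lost once sex was added to the model (adjusted p = 0.110) and without both libraries of high mitochondrial share (adjusted p = 0.0820). Krt15 was lost without control replicate 2 or 3 or IMQ replicate 3 (adjusted p = 0.0935, 0.0732 and 0.0539). Krt77 was lost without control replicate 2 or 3 (adjusted p = 0.0656 and 0.0732) and Krt24 without control replicate 3 (adjusted p = 0.0560). Krt1 in Tcn2-/- IMQ against control was lost without any control (adjusted p = 0.0793, 0.193 and 0.171) and without Tcn2-/- IMQ replicate 3 or 4 (adjusted p = 0.108 and 0.101), in a fit of only the groups compared (adjusted p = 0.126) and with sex as a covariate (adjusted p = 0.273).

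**Figure D4:**
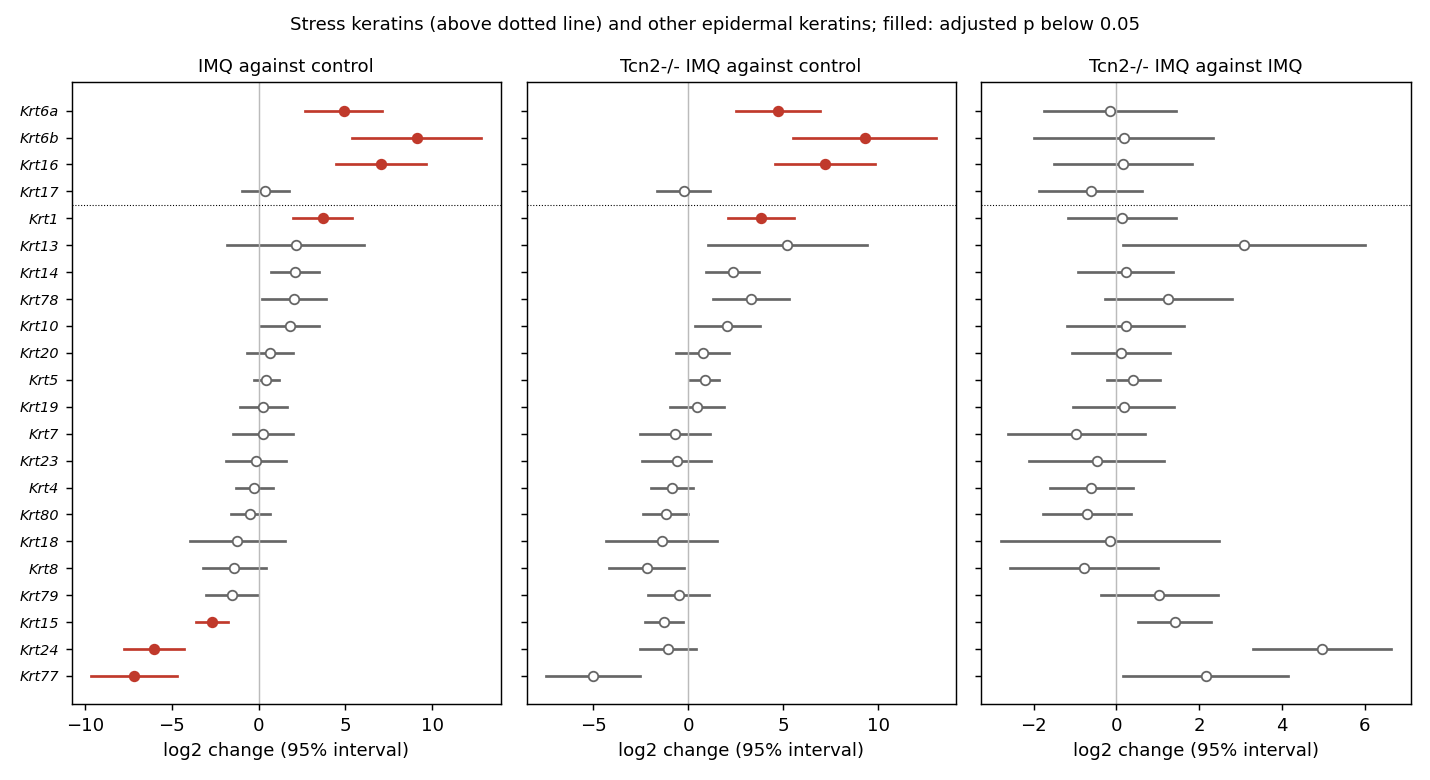
Log2 change with its 95% interval for the 4 stress keratins and 18 other epidermal keratins in each of the 3 comparisons, with filled points for an adjusted p below 0.05. Krt6b (9.11), Krt16 (7.05), Krt6a (4.89) and Krt1 (3.69) are filled on the higher side in IMQ against control, and none is filled in Tcn2-/- IMQ against IMQ.

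Upstream of the stress keratins are the cytokines and growth factors that induce them in keratinocytes. Of 26 listed, 21 had enough counts to be tested, and Il17a, Il17c, Il20, Il22 and Ifng did not, with 11 to 90 counts in total over all libraries. In IMQ against control 1 of 21 rose, Hbegf, a ligand of the EGF receptor (log2 change 3.35, SE 0.66, adjusted p = 0.0360, edgeR). The median log2 change of the 21 was 2.58, and 14 of them were higher in every IMQ library than in any control. Of all genes tested, 0.694% were called higher and 6.79% were higher in every IMQ library. Il1f6, the gene for IL-36 alpha, had a log2 change of 5.35 (adjusted p = 0.0543), Il1f8, for IL-36 beta, one of 3.94 (adjusted p = 0.0641) and Il1b one of 3.12 (adjusted p = 0.0635).

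Hbegf was at 7.37, 6.18 and 6.25 CPM in control skin, at 94.5, 49.0, 106, 35.2 and 51.1 CPM in IMQ replicates 1 to 5 and at 9.98, 7.15, 42.2 and 41.5 CPM in Tcn2-/- IMQ replicates 1 to 4. Its 2 low Tcn2-/- IMQ libraries were those low in Krt6a, Krt6b and Krt16. Il1f6 had the same order, at 30.2 and 22.3 CPM in replicates 1 and 2 and 212 and 185 CPM in replicates 3 and 4.

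Il1b, the gene for IL-1 beta, went another way. It fell by 5.34 on the log2 scale in Tcn2-/- IMQ against IMQ (SE 0.73, adjusted p = 0.0349, edgeR). It was the only 1 of the 21 called there, beside 0.0276% of all genes tested, and the median of the 21 was -0.36. It was at 274, 64.6, 53.1, 57.9 and 77.0 CPM in IMQ replicates 1 to 5 and at 2.73, 0.834, 3.52 and 3.27 CPM in Tcn2-/- IMQ replicates 1 to 4. Replicates 3 and 4 thus held the highest Krt6a, Krt6b and Krt16 levels of all 12 libraries together with Il1b below every control, which stood at 4.34, 13.4 and 18.5 CPM. The Il1b call held only without IMQ replicate 1 among the single libraries left out. Its adjusted p was 0.0647, 0.0582, 0.0688 and 0.0764 without IMQ replicates 2 to 5 and 0.113, 0.0976, 0.0974 and 0.173 without Tcn2-/- IMQ replicates 1 to 4.

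With single libraries left out, the Hbegf call was likewise kept only without IMQ replicate 2, with adjusted p-values of 0.0980, 0.172 and 0.161 without control replicates 1 to 3 and of 0.0640, 0.0770, 0.0520 and 0.0699 without IMQ replicates 1, 3, 4 and 5. With sex as a covariate its adjusted p was 0.0579. In Tcn2-/- IMQ against control 0 of the 21 cytokines and growth factors were called, beside 1.31% of all genes tested, with a median of 0.84.

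The receptors of these signals stand between the cytokines and the keratin genes. Of 23 tested, 1 was called lower in IMQ against control, beside 0.535% of all genes tested. It was Il20ra, a subunit of the receptor for IL-19, IL-20 and IL-24 (log2 change -3.22, adjusted p = 0.0414, edgeR), from 17.1 ± 2.06 to 1.83 ± 1.62 CPM. The median of the 23 was 0.18, and 0 were called in the other comparisons, with medians of -0.23 and -0.11. Of all genes tested, 0.0276% were called in Tcn2-/- IMQ against IMQ and 1.31% in Tcn2-/- IMQ against control. Il20ra was lost without control replicate 1, 2 or 3 (adjusted p = 0.0876, 0.167 and 0.149) and without IMQ replicate 1, 3 or 5 (adjusted p = 0.0680, 0.0907 and 0.104). It was also lost once sex was added to the model (adjusted p = 0.0607) and without both libraries of high mitochondrial share (adjusted p = 0.0878).

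Transcription factors and kinases known to act on stress keratin promoters were not called in any comparison, 0 of 30 each time by edgeR, with 6, 4 and 2 at an unadjusted p below 0.05, which 15.6%, 11.8% and 12.8% of all genes tested reached. Of all genes tested, 1.23%, 0.0276% and 1.31% were called in these comparisons. The medians of the 30 were 0.14 for IMQ against control, -0.26 for Tcn2-/- IMQ against IMQ and -0.09 for Tcn2-/- IMQ against control. Stat3, the transducer of IL-22 and IL-6 signals, had log2 changes of 0.38 (adjusted p = 0.481), -0.52 (adjusted p = 0.385) and -0.15 (adjusted p = 0.876) in that order. Klf5, a factor of proliferating keratinocytes, had 0.87 in IMQ against control (adjusted p = 0.176). Fosl1, an AP-1 subunit, had 2.75 (adjusted p = 0.256) from a low level of 0.355 ± 0.0372 CPM.

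Among 23 tested partners and linkers of keratin filaments, 1 was called higher against control in IMQ skin and in Tcn2-/- IMQ skin. Of all genes tested, 0.694% and 0.579% were called higher in these comparisons. Flg encodes filaggrin, which packs keratin filaments in the outer epidermis. It went from 55.0 ± 16.3 CPM in the controls to 999.7 ± 566 CPM in IMQ skin (log2 change 4.18, SE 0.52, adjusted p = 0.00568, edgeR) and to 1589 ± 230 CPM in Tcn2-/- IMQ skin (log2 change against control 4.85, SE 0.55, adjusted p = 0.00605). The first call was lost without control replicate 2 or 3 (adjusted p = 0.0547 and 0.0678) and the second without control replicate 3 (adjusted p = 0.0570). Sfn, which encodes the 14-3-3 sigma protein that binds Krt17, had a log2 change of 1.86 in IMQ against control (adjusted p = 0.167). The medians of the 23 were 0.52, -0.03 and 0.29 in the 3 comparisons.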

How the data were processed

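RNA-seq was made from mouse skin with oligo(dT) capture and random priming, per the labels' protocols. The deposited values are raw whole-number counts per gene, and the authors applied no normalization to them. Per the submitters' processing notes the build was GRCm39. Aligner, counter, annotation and strand setting: none is given in the sources used here, and near copies or overlapping genes may share reads. The titles gave each library its group and number, and 0 columns stayed unmapped.

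The analysis used edgeR 4.0.16 under R 4.3.3. Of 33539 genes, 18147 passed filterByExpr, and 1 quasi-likelihood model with TMM scaling and a mean per group was fitted to all 12 libraries (common biological coefficient of variation 0.463). Benjamini-Hochberg adjustment ran over all genes tested, and a gene was called at an adjusted p below 0.05. The SE is the log2 change divided by the root of F, and 95% intervals use the model's degrees of freedom. CPM uses library sizes after the filter times TMM factors (0.927 to 1.115). Log2 ratios of counts carried a pseudocount of 0.5 and were compared with exact two-sided permutation tests (scipy 1.17.1). Transcripts were aligned with Biopython 1.88. Gene symbols Il1f6 and Il1f8 were matched through RefSeq synonyms. The fit was tested on simulated data. Depth gives few counts to genes under 1 CPM, and PCR copies cannot be told apart.

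The members and the 13 gene lists were chosen with earlier results of these data known. Named genes are the members, Krt75, Krt42, Krt5 and Krt14, up to 4 called members of each list by p or, in lists without a call, the 2 of lowest p, the 6 genes most like the members' mean before and after subtracting group means (mean of at least 1 CPM), and Tcn2. Not every gene the rule picks is printed, and Krt10 and Stat3 were named outside it for their known roles. Other settings were DESeq2 1.42.0, RLE factors, no filter, only the groups compared, sex as a covariate, the replicate number as a block, leaving out both libraries with a high mitochondrial share, another pseudocount and reference for the ratios, and leaving out each library in turn. Eppk1 was listed but not analysed here.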

Additional observations from a re-analysis of the deposited data

Results flagged for a closer look

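Krt16 in IMQ replicate 5 stood at 4030.5 CPM, far from the next library of its group at 2266.5 CPM. Its gap to that library was 0.729 of the group's whole range, above Dixon's critical value of 0.710 for 5 libraries. Of 18 gene and ratio groups checked, 1 was picked out in this way, and chance picks out about 1 in 20. The same library had the highest Krt6a, Krt6b, Krt14 and Krt5 levels of the IMQ group, and its ratio of Krt16 to Krt14 was 0.300, inside the range of the other IMQ libraries. Why its levels were high was not tested.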

How the results depend on the processing

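Krt6a, Krt6b and Krt16 were higher than in control skin in both IMQ groups under every setting run, while their adjusted p-values lay on either side of the threshold. Over all settings these ran, with DESeq2 the lowest, from 1.67e-08 to 0.194 for Krt6a, 1.36e-17 to 0.152 for Krt6b and 2.36e-16 to 0.135 for Krt16 in IMQ against control, and from 3.65e-07 to 0.264, 1.91e-16 to 0.210 and 2.28e-15 to 0.128 in Tcn2-/- IMQ against control. In IMQ against control, other log2 changes of Krt6a were 4.93 after adding sex to the model (adjusted p = 0.0745) and 4.98 without both libraries of high mitochondrial share (adjusted p = 0.0571), and the Krt6a and Krt6b sum gave 6.22 with sex (adjusted p = 0.0729). Genes called numbered 1126 by DESeq2, 541 in a fit of only the groups compared and 143 with sex. The Krt17 to Krt14 difference was -1.61 with Krt5 and Krt14 summed as reference. In Tcn2-/- IMQ against IMQ, Krt6a was 0.21 without both libraries of high mitochondrial share, and genes called numbered 51 there, 17 with no filter, 600 by DESeq2 and 42 with only the groups compared. In Tcn2-/- IMQ against control, only the groups compared gave 4.73 for Krt6a, 9.30 for Krt6b, 7.22 for Krt16 and 6.29 for the sum, with 0 members and 102 genes called. Sex gave 4.80, 9.67, 7.51 and 6.28 in that order and 0.084 for Krt17, with 0 members and 27 genes called. DESeq2 called 1050 genes there, and 396 were called without both libraries of high mitochondrial share. The causes were not tested.

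With each library left out in turn, IMQ against control gave 4.76 to 5.03 for Krt6a, 8.79 to 10.05 for Krt6b, 6.77 to 7.33 for Krt16, 0.0088 to 0.64 for Krt17 and 5.99 to 6.34 for the sum, with 0 to 3 members and 8 to 397 genes called. The fewest genes were called without control replicate 3 and the most without IMQ replicate 2. Tcn2-/- IMQ against IMQ gave -0.91 to 0.21, -0.58 to 0.58, -0.55 to 0.54, -0.87 to -0.24 and -0.69 to 0.46 in the same order, with 1 to 5 genes called. Tcn2-/- IMQ against control gave 3.98 to 5.10, 8.54 to 10.23, 6.50 to 7.59, -0.42 to -0.11 and 5.53 to 6.68, with 0 to 3 members and 3 to 428 genes called. The ratio differences, IMQ minus control, were 4.11 to 4.54 for Krt6a, 8.22 to 9.59 for Krt6b, 4.47 to 5.27 for Krt16 and -2.55 to -1.82 for Krt17, with exact p-values of 0.0571 to 0.0952, where fewer libraries allow none below 0.05. For Tcn2-/- IMQ minus IMQ the Krt17 ratio difference was -0.66 to 0.43.

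The groups share replicate numbers, but nothing says that a number marks 1 animal or day. Deviations of same-numbered libraries correlated at 0.047, -0.114 and 0.263 in IMQ against control. They correlated at -0.12, 0.419, 0.216 and 0.195 in Tcn2-/- IMQ against IMQ, and at 0.0186, -0.531 and 0.304 in Tcn2-/- IMQ against control. So few pairs cannot decide whether the numbers pair the libraries. With the replicate block, IMQ against control gave 4.62 for Krt6a (adjusted p = 0.167), 8.52 for Krt6b (adjusted p = 0.152), 6.62 for Krt16 (adjusted p = 0.102) and 5.73 for the sum (adjusted p = 0.163), with 0 members and 46 genes called. The block gave -0.39 for Krt6b, -0.31 for Krt16, -0.58 for the sum and 0 genes in Tcn2-/- IMQ against IMQ. It gave 3.94 for Krt6a, 8.13 for Krt6b, 6.31 for Krt16, 0.0025 for Krt17 and 5.14 for the sum, with 0 members and 20 genes called, in Tcn2-/- IMQ against control. Under the block, edgeR also lost Krt1, Krt15, Krt77, Hbegf and Il20ra in IMQ against control (adjusted p = 0.1025, 0.0823, 0.0752, 0.135 and 0.0869). Krt24 and Flg were kept there (adjusted p = 0.0471 and 0.0450). Il1b was lost in Tcn2-/- IMQ against IMQ (adjusted p = 0.322). In Tcn2-/- IMQ against control Krt1 was lost and Flg kept (adjusted p = 0.1275 and 0.0336).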
